A study of Mus musculus with 16 samples.

Results

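Airn and 5 protein-coding genes around it, Igf2r, Slc22a2, Slc22a3, Mas1 and Plg, were examined for their recovery with the RNA-binding protein Igf2bp2. All rows of the authors' deposited table that carried one of these symbols were taken, which gave 7 rows of 35556 and 6 genes of 20169 with a symbol of their own. Airn had 2 rows and each of the other genes 1. The cells were HL-1, a mouse atrial cardiomyocyte line, which is a single line kept in culture in medium with norepinephrine. They were transfected either with a scrambled control siRNA or with one directed against Airn (named siAirn-001.1 in the labels), each at 10 nM. RNA was then precipitated with an antibody against Igf2bp2 or with control IgG and hybridised to Affymetrix arrays. The 4 groups were scrambled siRNA with IgG, scrambled siRNA with anti-Igf2bp2, Airn siRNA with IgG, and Airn siRNA with anti-Igf2bp2. Each held 4 arrays labelled as biological replicates, 16 in all.

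Airn is a long non-coding RNA made from the paternal chromosome. It is transcribed antisense to Igf2r and starts inside that gene. In the mouse it silences Igf2r in cis, and in the placenta also Slc22a2 and Slc22a3, which makes the cluster a textbook case of genomic imprinting by a non-coding RNA. Igf2bp2 binds mRNAs and acts on their stability, transport and translation. In RefSeq's annotation of GRCm38.p6, a mouse assembly, the genes lie on chromosome 17 in the order Plg, Slc22a3, Slc22a2, Igf2r, Airn and Mas1. In that annotation Airn overlaps both Igf2r and Mas1.

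The start regions of Airn and Igf2r, the antisense pair of the locus, are shown as background and bear on none of the values below. Each window runs from 250 bases before to 50 after the annotated start and is given 5′ to 3′ on the gene's own strand, from RefSeq (GRCm38.p6), with every CG dinucleotide in capitals. The Airn window is chr17:12741061-12741360 on the plus strand, and the Igf2r window is chr17:12769657-12769956 on the minus strand.
Airn: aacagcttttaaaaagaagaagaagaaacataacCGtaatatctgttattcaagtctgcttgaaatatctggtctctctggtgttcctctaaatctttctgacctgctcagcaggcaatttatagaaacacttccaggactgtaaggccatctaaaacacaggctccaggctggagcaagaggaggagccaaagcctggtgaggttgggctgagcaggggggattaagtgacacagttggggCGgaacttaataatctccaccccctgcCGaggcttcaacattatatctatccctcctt
Igf2r: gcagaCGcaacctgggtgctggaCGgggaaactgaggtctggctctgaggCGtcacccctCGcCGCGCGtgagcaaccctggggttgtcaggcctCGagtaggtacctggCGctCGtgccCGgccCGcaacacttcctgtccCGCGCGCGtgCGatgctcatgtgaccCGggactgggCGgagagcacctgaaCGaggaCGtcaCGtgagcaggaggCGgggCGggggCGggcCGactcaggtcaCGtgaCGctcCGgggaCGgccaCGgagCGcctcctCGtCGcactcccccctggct
The motif searched was CG, which reads the same on both strands. The Airn window held 3 CG and the Igf2r window 34, and the sequence outside the windows was not counted. At least 3 CG were found in 76.7% of 32851 such windows, and at least 34 in 7.73%, against a median of 7. The table of windows held 5 of the 6 genes. Of the other genes with a window, Slc22a2 held 8, Slc22a3 5 and Mas1 2.

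Each value below is a log2 difference, anti-Igf2bp2 minus IgG, so that a positive value means more of an RNA in the Igf2bp2 precipitate. A row was called at an adjusted p under 0.05. Each error is a standard error (SE) computed back from the authors' difference and p, and intervals are 95% intervals on the log2 scale built from it. No values of single arrays entered the work, so the spread between replicates is known only through the SE, and neither signal over background nor RNA levels could be examined. For the same reason the cell type could not be checked by levels. The differences compare antibodies within 1 siRNA, so the degree of silencing of Airn is not measured by them. No source used here says whether the probes read 1 strand. If they did not, Airn could not be told apart from Igf2r and Mas1 where they overlap.

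With the scrambled siRNA, Mas1 was lower in the Igf2bp2 precipitate, and no other RNA of the locus was called. Both Airn rows stood above 0, and Plg, Slc22a3 and Igf2r below it. The call on Mas1 was 1 of 7 rows, while 37.3% of all rows were called in this comparison in either direction and 16.8% as lower. Of those calls over all rows 54.9% were higher, and 68.8% with each comparison centred on its median. With the Airn siRNA 0 of 7 rows were called, against 1.05% of all rows, and 1 of 7 had an unadjusted p under 0.05. There 59.7% of the calls over all rows were higher, and 80.1% with centring. The change between the siRNAs was not called for any row of the locus.

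**Figure D1:**
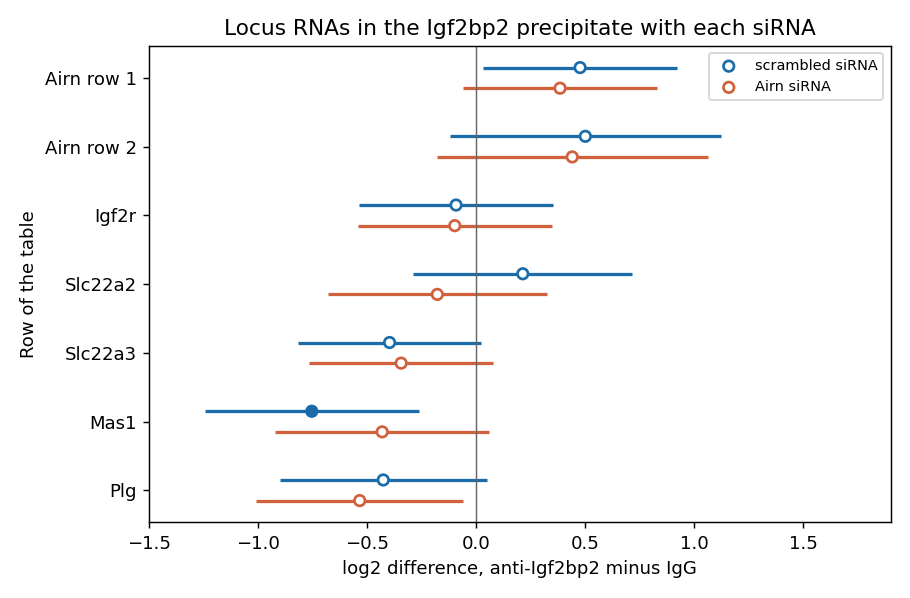
Log2 difference, anti-Igf2bp2 minus IgG (x axis), for each row of the locus (y axis), with the scrambled siRNA in blue and the Airn siRNA in orange. Points are the authors' deposited differences, lines are 95% intervals from the recovered SE, and a filled point was called at an adjusted p under 0.05; only Mas1 with the scrambled siRNA (-0.76) is filled, and both Airn rows lie right of 0 with both siRNAs.

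The rows of Airn, the RNA that the siRNA was directed against, gave nearly the same values. The more precise row (transcript cluster 10441791) was put at 0.48 ± 0.21 with the scrambled siRNA by the authors' deposited table, which is 1.39-fold (interval 0.03 to 0.92, adjusted p = 0.0785). The Airn siRNA gave 0.38 (1.30-fold, interval -0.06 to 0.83, adjusted p = 0.197) in the authors' deposited table. The scrambled interval therefore excluded 0 by itself while the row was not called after adjustment over all rows. The authors' deposited table put the other row (transcript cluster 10441787) at 0.50 ± 0.29 and 0.44, with adjusted p of 0.170 and 0.272, and both of its intervals included 0. Its SE was larger than that of 65.5% of all rows, against 24.6% for the first row. No source used here says which stretch of Airn each row reads.

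Where the line for a call fell differed between the comparisons. At the SE of the more precise Airn row, a difference of 0.55 would have been called with the scrambled siRNA and one of 0.90 with the Airn siRNA, because far fewer rows passed in the latter. For the less precise row these sizes were 0.77 and 1.27. When each comparison was centred on the median of all rows (-0.10 with the scrambled siRNA, -0.06 under the Airn siRNA), the more precise Airn row was called with the scrambled siRNA, at 0.58 (adjusted p = 0.0413, recovered test). Among all rows, 70.7% lay below this row with the scrambled siRNA, and 73.0% did under the Airn siRNA, so Airn stood in the upper part of the table and not near its top.

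Igf2r encodes the receptor that carries mannose-6-phosphate-tagged enzymes to lysosomes and takes up Igf2 for breakdown. Its mRNA (transcript cluster 10447799) stood at -0.09 ± 0.21 with the scrambled siRNA (interval -0.54 to 0.35, adjusted p = 0.723), and at -0.10 under the Airn siRNA (interval -0.54 to 0.35, adjusted p = 0.727), by the authors' deposited table. These values lay in the middle of all rows, with 50.3% and 48.0% of rows below them. With centring on the median the scrambled value turned to 0.01. The intervals leave room for differences of up to 0.54 below and 0.35 above 0 with either siRNA.

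Other genes of mannose-6-phosphate sorting and Igf2 signalling mostly stood above 0. Of 19 measured genes in this list, 13 were called higher and 0 lower with the scrambled siRNA, with a median of 0.72. Over all 20169 genes, each by its most precise row, 25.5% were called higher and 17.2% lower in this comparison, with a median of -0.05. Among the largest were Vps26a (1.48), a retromer subunit that returns the receptor from endosomes, and the sorting nexins Snx1 (1.06) and Snx2 (1.005), all in the authors' deposited table. The authors' deposited table put Igf2 itself below 0, at -0.47 (scrambled siRNA) and -0.49 (Airn siRNA), and called it in neither comparison. The other 18 genes stood above 0 in each. In the average over both siRNAs, 16 of the 19 were called higher, and Igf2 was called lower at -0.48 (adjusted p = 0.0127, recovered test). Under the Airn siRNA none of the 19 was called and the median was 0.44. There 0.813% of all genes were called higher and 0.169% lower, with a median of 0.01. These shares of all genes are the background for the other lists too. The lists were chosen with earlier results of these data known, so no count on them is a test. Igf2r was thus not called in a comparison in which most of this list was, although the difference between Igf2r and the list was not tested.

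Slc22a2 and Slc22a3 encode the organic cation transporters Oct2 and Oct3, and Slc22a3 takes up catecholamines outside neurons. In the authors' deposited table Slc22a2 (transcript cluster 10441774) had 0.21 ± 0.24 with the scrambled siRNA, at an adjusted p of 0.464, and -0.18 under the Airn siRNA, at an adjusted p of 0.570. It was the only row of the locus whose sign differed between the siRNAs, and the other 6 kept theirs, although with centring on the medians the sign of Igf2r differed as well. Over all rows 87.8% had the same sign in both comparisons. Both Slc22a2 intervals included 0 (-0.29 to 0.72 and -0.68 to 0.32). The authors' deposited table gave Slc22a3 (transcript cluster 10447773) as -0.40 ± 0.20 and -0.35, with adjusted p of 0.113 and 0.215 and intervals of -0.82 to 0.02 and -0.77 to 0.08. Its SE was the smallest of the locus, smaller than that of 81.7% of all rows.

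In the wider Slc22 family, 18 of 23 listed genes had a row of their own. Of these, 2 were called lower and 0 higher with the scrambled siRNA, the renal organic anion transporter Slc22a8 (-0.69) and Slc22a19 (-0.75) in the authors' deposited table. None was called with the Airn siRNA, and the medians were -0.24 with both. Among 13 genes of catecholamine uptake, breakdown and receptors, 1 was called higher and 3 lower with the scrambled siRNA and none with the Airn siRNA, with medians of -0.20 and -0.22. The lower ones included the noradrenaline transporter Slc6a2 (-0.91) and the vesicular transporter Slc18a1 (-0.56) in the authors' deposited table. Over all genes 25.5% were called higher and 17.2% lower with the scrambled siRNA. Both lists had a smaller share called higher than that. The Slc22 and catecholamine lists are short and no test against these shares was run, so the counts are no result about those genes.

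Mas1 encodes a G-protein-coupled receptor for angiotensin-(1–7), and its RNA had the lowest scrambled-siRNA value of the locus. Its row (transcript cluster 10447848) stood at -0.76 ± 0.23 with the scrambled siRNA, which is 1.69-fold lower (interval -1.25 to -0.26, adjusted p = 0.0246), in the authors' deposited table. The Airn siRNA gave -0.43 (1.35-fold lower, interval -0.92 to 0.06, adjusted p = 0.192) in the authors' deposited table. With the scrambled siRNA 16.5% of all rows lay below it, so that a value of this size was common in the table. Of 12 measured genes of the renin-angiotensin system, 2 were called higher and 4 lower with the scrambled siRNA, with a median of -0.36. With 25.5% of all genes called higher and 17.2% lower there, these counts over 12 genes are not a result about the pathway. The lower ones included the angiotensin receptors Agtr1b (-0.96) and Agtr1a (-0.67) and the endopeptidase Mme (-0.86) in the authors' deposited table. The higher ones were Atp6ap2 (0.98), the prorenin receptor, and Agtrap (0.90), which binds the type 1 angiotensin receptor. None of the 12 was called with the Airn siRNA, and their median there was -0.11.

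Plg encodes plasminogen, the liver-made precursor of the protease plasmin. It stood at -0.43 ± 0.22 with the scrambled siRNA (interval -0.90 to 0.05, adjusted p = 0.129), and at -0.54 under the Airn siRNA (interval -1.01 to -0.06, adjusted p = 0.123), by the authors' deposited table (transcript cluster 10441753). It was the lowest of the locus under the Airn siRNA, and there its unadjusted p lay under 0.05, as in 32.9% of all rows. Of 14 liver genes, 5 were called lower and 0 higher with the scrambled siRNA, against 17.2% and 25.5% of all genes. None of the 14 was called with the Airn siRNA. Their medians were -0.54 and -0.43, with albumin (Alb) at -0.67 and -0.49 in the authors' deposited table. In the plasminogen system, 3 of 13 genes were called higher with the scrambled siRNA and 1 lower, and 1 higher with the Airn siRNA, with medians of -0.01 and 0.10. With the scrambled siRNA 25.5% of all genes were called higher and 17.2% lower, and with the Airn siRNA 0.813% were called higher. The counts over 13 genes are therefore not a result about the plasminogen system. The plasminogen-binding S100a10 was higher with both siRNAs (1.06 and 1.37), Anxa2 (0.56) and Eno1 (0.49) were higher with the scrambled siRNA, and the plasmin inhibitor Serpinf2 (-0.86) was lower, in the authors' deposited table. What part the expression of Plg and Mas1 in these cells had in their values was not tested.

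**Figure D2:**
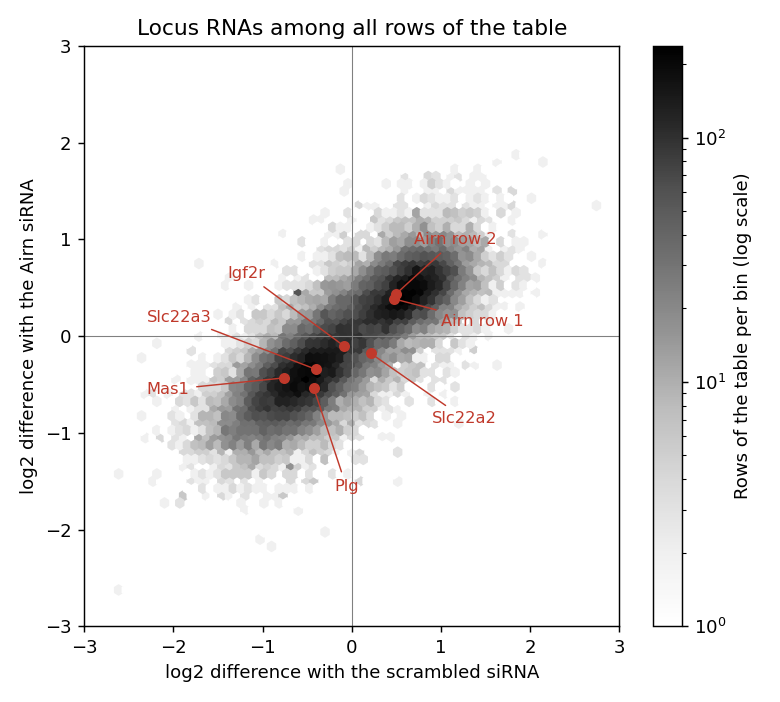
Log2 difference with the scrambled siRNA (x axis) against that with the Airn siRNA (y axis), with all 35556 rows of the table as grey bins (log colour scale) and the 7 rows of the locus in red. The Airn rows lie in the upper right cloud, Slc22a3, Mas1 and Plg in the lower left one, Igf2r near the origin, and Slc22a2 (0.21 and -0.18) in the lower right quadrant.

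The order of the rows was similar with the siRNAs at its upper end and differed at its lower end. With the scrambled siRNA it ran from the Airn rows over Slc22a2, Igf2r, Slc22a3 and Plg to Mas1. Under the Airn siRNA Igf2r stood above Slc22a2 and Plg stood lowest. Neighbours in either order had overlapping 95% intervals throughout. Of 21 pairs of rows, 3 had intervals apart with the scrambled siRNA: both Airn rows lay above Mas1, and the more precise one above Slc22a3. Under the Airn siRNA it was 1 pair, the more precise Airn row above Plg. These pairs were read from the same arrays and their differences were not tested.

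In the average over both siRNAs, which takes the errors of the comparisons as independent, Mas1, Plg and Slc22a3 were called lower and the more precise Airn row higher. That is 4 of 7 rows, against 58.2% of all rows called in the average (29.2% higher and 29% lower), so the share is near the background and is no result about the locus. Mas1 stood at -0.59 ± 0.16 (adjusted p = 0.00875), Plg at -0.48 ± 0.16 (adjusted p = 0.0187) and Slc22a3 at -0.37 ± 0.14 (adjusted p = 0.0338) in the recovered test. Airn stood at 0.43 ± 0.15 (interval 0.12 to 0.74, adjusted p = 0.0229) in the recovered test, and its other row at 0.47 ± 0.21 (interval 0.03 to 0.91, adjusted p = 0.0613), which was not called. That other row was called with centring on the median (0.55, adjusted p = 0.0351) and with an assumed correlation of -0.3 between the errors (adjusted p = 0.0252). Igf2r (-0.10 ± 0.15) and Slc22a2 (0.02 ± 0.17) were not called. The Slc22a3 call was lost with centring on the median (-0.29, adjusted p = 0.0849) and where the correlation was taken as 0.3 (adjusted p = 0.0650). Of 21 pairs of rows, 6 had intervals apart in the average, which were both Airn rows above each of Slc22a3, Plg and Mas1.

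**Figure D3:**
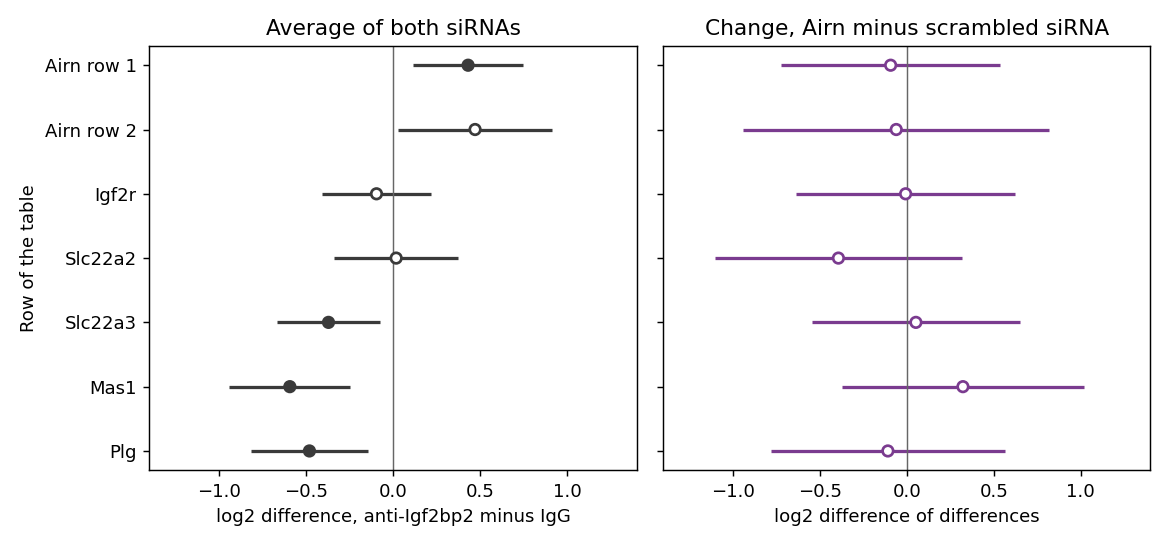
For each row of the locus (y axis), the mean of both log2 differences (left) and the Airn-siRNA difference minus the scrambled-siRNA difference (right), with 95% intervals as lines and filled points for rows called at an adjusted p under 0.05. In the average the more precise Airn row (0.43), Slc22a3, Mas1 and Plg are filled, while every interval of the change spans 0.

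The change of enrichment asked whether the Airn siRNA altered how far each RNA was recovered with Igf2bp2. No row of the locus was called (0 of 7, and 0 of 7 at an unadjusted p under 0.05), and 0% of all rows were called, with 3.44% at an unadjusted p under 0.05 in the recovered test. For Airn itself the change was -0.09 ± 0.30 (interval -0.72 to 0.54), a ratio between 0.607 and 1.45. Its other row gave -0.06 ± 0.42 (interval -0.94 to 0.82). For Igf2r the change was -0.01 ± 0.30 (interval -0.64 to 0.62). The widest shifts were those of Slc22a2, at -0.39 ± 0.34 (interval -1.10 to 0.32), and Mas1, at 0.32 ± 0.33 (interval -0.37 to 1.02). Slc22a3 gave 0.05 ± 0.28 (interval -0.54 to 0.65), and Plg gave -0.11 ± 0.32 (interval -0.78 to 0.56). The lowest of the 7 adjusted p-values of the change was 0.9977 in the recovered test. Changes as large as these bounds could not be told from none, and the values do not show that recovery was equal. At the SE of Slc22a3, the smallest of the locus, a change of 2.08 would have been needed for a lone row to pass the adjustment.

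Along the chromosome, genes around the locus stood on both sides of 0. A list of genes around it on the same chromosome held 17 measured genes, some of them beyond the nearest. Of these, 4 were called higher and 3 lower with the scrambled siRNA, with a median of 0.29. None was called with the Airn siRNA, with a median of 0.41. The sign of these medians depended on the genes taken. For the 24 genes with a row that flank the locus most closely, 12 on each side, they were -0.33 and -0.20, with 5 called higher and 4 lower with the scrambled siRNA and none with the Airn siRNA. These shares lie near those of all genes. In the list, the higher ones were Wtap (1.05), a subunit of the N6-methyladenosine writer, the mitochondrial ribosomal protein Mrpl18 (0.75), the RNA-binding protein Qk (0.67) and superoxide dismutase Sod2 (0.65) in the authors' deposited table. The lower ones were Tagap (-1.09), the phosphodiesterase Pde10a (-0.83) and the acyltransferase Agpat4 (-0.76) in the authors' deposited table. Tagap was not among the 24 genes that flank the locus most closely. Among the 6 genes of the locus, Airn was the only one above 0 with both siRNAs, with or without centring on the medians.

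**Figure D4:**
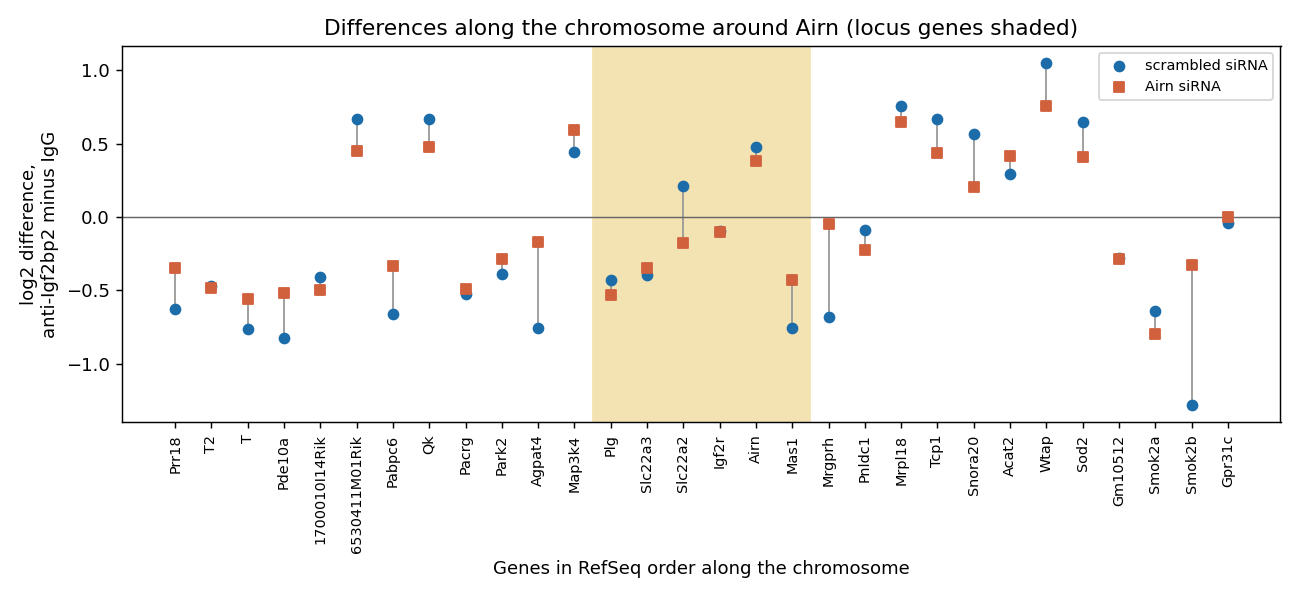
Log2 difference between anti-Igf2bp2 and IgG (y axis) for 30 genes, the 6 of the locus and 12 genes with a row on each side of it, in RefSeq order along the chromosome (x axis), with the scrambled siRNA as blue circles and the Airn siRNA as orange squares joined by a line. Genes of the locus are shaded; among them, Airn is the gene with both points above 0, and genes on either side lie between -1.28 (Smok2b) and 1.05 (Wtap).

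The genes most like Airn in the table were found by the distance between their pairs of differences, over the 2 comparisons alone and among coding and long non-coding genes with a current symbol that is not a predicted or clone name. They were Nhsl1 (0.48 and 0.38), the nuclear RNA-binding protein Hnrnpu (0.47 and 0.39) and the splicing-complex assembly factor Clns1a (0.47 and 0.38) in the authors' deposited table. Hnrnpu (adjusted p = 0.0376) and Clns1a (adjusted p = 0.0453) were called with the scrambled siRNA, by the authors' deposited table, at nearly the size at which Airn was not. For Igf2r the nearest were Abcd4 (-0.09 and -0.10), Tuba8 (-0.08 and -0.09) and Triobp (-0.10 and -0.11) in the authors' deposited table, none of them called. With 2 values a gene, such likeness is common. Among all genes with a symbol of their own, predicted and clone names included, 617 lay within 0.1 of Airn and 324 within 0.1 of Igf2r.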

How the data were processed

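Igf2bp2 RIP-chip was analysed from 1 file, a table of the authors' comparisons. Per the file headers, the deposited values were differences of anti-Igf2bp2 minus IgG (taken here as log2 differences), with p-values and adjusted p-values, for each siRNA. The headers state no logarithm or base, so base 2 was assumed and could not be tested. No source used here gives the software, normalization, genome build or model, and no fit to arrays could be made, so the standard error (SE) was computed back from difference and p.

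At 16.13 degrees of freedom both comparisons gave 1 SE per row (median disagreement 0.0659% over 29970 rows). From it the SE, 95% intervals, the change (Airn minus scrambled siRNA) and the average were computed, with errors taken as independent. The comparisons rest on different arrays, but whether their errors were independent could not be tested. The change and the average were tested with a t distribution and Benjamini-Hochberg adjustment over all 35556 rows. This is called the recovered test (Python 3.11.15, scipy 1.17.1). The method was checked on simulated arrays fitted in limma 3.58.1. Their errors were drawn as independent, so the check cannot test that assumption. Printed p-values under 5e-05 were rebuilt from the adjusted p.

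Of a list gene's several rows, the most precise was used. All rows of the locus were named, and of each list up to 4 called genes with the largest differences per comparison. Some genes that this rule would name are not reported here. The members and lists were chosen with earlier results of these data known. The stretch of neighbouring genes plotted, and the limit of 0.1 for like genes, were chosen after the values were seen. Alternatives were centring, the rows adjusted over, the threshold, the degrees of freedom and the correlation of errors.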

Additional observations from a re-analysis of the deposited data

How the results depend on the processing

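With the scrambled siRNA, 1 row of the locus was called. Centring on the median gave 2 (the more precise Airn row joined Mas1), a threshold of 0.1 gave 2 and one of 0.01 gave 0. Centring turned the sign of Igf2r with the scrambled siRNA (0.0075). In the average, 4 rows were called. A threshold of 0.01 left 1 (Mas1), a correlation of 0.3 left 3 (without Slc22a3), and a threshold of 0.1 or a correlation of -0.3 gave 5 (with the other Airn row). Centring gave 4, with the other Airn row in place of Slc22a3. The more precise Airn row had an adjusted p from 0.00694 to 0.0477 in the average under the settings run, so it passed 0.05 under each of them and not 0.01 under the main one (0.0229). The other Airn row (0.47, adjusted p = 0.0613) passed with centring (adjusted p = 0.0351) and with a correlation of -0.3 (adjusted p = 0.0252). The counts of 0 with the Airn siRNA and in the change did not move under any setting run. Over all rows, the share called with the Airn siRNA was 1.05%, 3.33% with centring and 0.161% among rows with a single symbol. Of 98 values of single rows under these alternatives, 92 kept their direction and their side of the threshold, 3 passed it newly, 2 no longer passed and 1 turned. No paired analysis was possible because the table holds comparisons and no values of single arrays, and for the same reason leaving out each replicate was not run. Signal over background is not in the values used here, so whether a low or absent RNA lies behind a row's value was not tested, and 4 arrays a group limit the precision.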

Other observations

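Genes known to act with imprinted loci were mostly on the higher side with the scrambled siRNA. Of 16 chromatin and imprinting factors, 10 were called higher and 0 lower, with a median of 0.64, where 25.5% of all genes were called higher and 17.2% lower. They included the insulator protein Ctcf (1.05), the Polycomb subunits Eed (1.02), Rnf2 (0.84) and Ezh2 (0.83) in the authors' deposited table. Dnmt3l (-0.61) and Zfp57 (-0.22) stood below 0 with the scrambled siRNA and were not called, by the authors' deposited table. With the Airn siRNA 1 of the 16 was called higher, the histone H3 lysine 9 methyltransferase Ehmt1 (0.77), and the median was 0.39. The list was chosen with earlier results of these data known, so its counts are not a test of these genes. Only 3 of 13 listed imprinted or cis-acting long non-coding RNAs had a row of their own. With the scrambled siRNA H19 (0.76) was called higher and Meg3 (-0.92) lower, while Xist was not called, and none of the 3 was called with the Airn siRNA.

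Of 13 measured atrial cardiomyocyte markers, 8 were called higher with the scrambled siRNA and 2 under the Airn siRNA, and none lower. Over all genes 25.5% and 0.813% were called higher in these comparisons. They included the gap-junction protein Gja1 (1.19 with the scrambled siRNA), the calcium-pump regulator Pln (0.91), cardiac actin Actc1 (0.84) and the atrial light chain Myl4 (0.72 and 0.78) in the authors' deposited table. The natriuretic peptide precursor Nppa stood at 0.19 with the scrambled siRNA and was called higher with the Airn siRNA (1.03), by the authors' deposited table. Gja5, another gap-junction protein, stood below 0 with both siRNAs (-0.255 and -0.143) in the authors' deposited table. Gja5, Nppb, Hcn4 and Tnni3 were called with neither siRNA. The list of atrial markers was chosen with earlier results of these data known, so its counts are not a test of these genes. Leukocyte markers had 1 of 9 called higher and 3 lower with the scrambled siRNA, endothelial markers 0 and 2 of 7, and fibroblast markers 1 and 2 of 8, against 25.5% higher and 17.2% lower over all genes. On lists this short such counts are no result about these markers. None of these 3 lists had a call with the Airn siRNA.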
